A study of Homo sapiens with 6 samples.

Results

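The 9 genes described here encode prefoldin and its relatives: the 6 subunits of the prefoldin hexamer (PFDN1, PFDN2, VBP1, PFDN4, PFDN5 and PFDN6) and 3 prefoldin-like proteins (UXT, PDRG1 and URI1). They were taken by gene name from a table of 62703 genes, and each name matched a single row. The set was chosen by its transcript levels (TPM) in the comparison described here, because PFDN4 was much lower in the cells overexpressing OGT. Values of the members in that comparison are therefore given as a description, with no test.

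RNA sequencing was done on 786-O cells, an established human clear cell renal cell carcinoma line without functional VHL protein. The labels give 3 control samples (genotype WT) and 3 samples with OGT overexpressed, and name neither the vector nor the promoter. OGT encodes O-GlcNAc transferase, which adds a single sugar to serines and threonines of nuclear and cytosolic proteins. All samples were grown in the same medium with serum, and no treatment is labelled. The labels do not say whether replicates were separate cultures, so errors and p-values cover the spread between these 6 samples and nothing wider, and that spread may be technical.

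Prefoldin is a cytosolic chaperone shaped like a jellyfish, with coiled-coil arms that hold unfolded proteins. It is built from alpha subunits (VBP1, also called PFDN3, and PFDN5), encoded by 2 genes, and beta subunits (PFDN1, PFDN2, PFDN4 and PFDN6), encoded by 4. It passes newly made actin and tubulin chains to the chaperonin TRiC, which closes around them while they fold. A second complex, built around URI1 with UXT, PDRG1, PFDN2 and PFDN6, works with the R2TP chaperone in the assembly of RNA polymerases and other large complexes. VBP1 was named for binding to the VHL protein.

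A short sequence was common to 3 of the 8 genes whose promoter windows were read, and it is shown because PFDN4, VBP1 and PFDN1 share it although their values differ in direction. The RefSeq promoter windows (build GRCh38.p14, each running from before to after an annotated start) matched 8 members by symbol, all but PFDN2. The motif AAGATGGC, searched, like those named after it, on both strands and chosen after the sequences were seen, is part of the element known to be bound by YY1. It stood 11 bases after the start in PFDN4, 20 bases after it in VBP1 and 25 bases after it in PFDN1. The motif holds the letters ATG, which are also those of a start codon. Whether they begin the coding sequence of these 3 genes was not tested, so the shared letters may be coding sequence, a regulatory site or both. Capitals mark the motif in these 30-base windows, written 5′ to 3′ on the gene's strand, at chr20:54208087-54208116 (plus), chrX:155216469-155216498 (plus) and chr5:140303058-140303087 (minus).
PFDN4: agtccagtcccAAGATGGCggccaccatga
VBP1: ctcgcatccccAAGATGGCggccgttaagg
PFDN1: tacagtgcaccAAGATGGCcgcccccgtgg
Of 35116 windows in the table, 2.89% held the motif. In PFDN4, PFDN1 and VBP1 it was in 1 window each, and VBP1 has 2 further windows without it. The core hypoxia response letters ACGTG to which HIF proteins bind, were in windows of PFDN6 and URI1 and in 21.4% of all windows. The ETS-type letters CCGGAAG were in windows of PFDN5, PFDN6, UXT, PDRG1 and URI1 and in 10.3% of all windows. A match of letters is a description only.

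Levels are in TPM, a relative abundance scaled by transcript length and by the library's total, so that genes can be compared. TPM holds no number of reads, which leaves the depth unknown and allows no interval for counting error. The 6 libraries each summed to between 993935.5 and 996951.6 TPM. Positions are those of GENCODE release 29 (GRCh38). OGT itself (ENSG00000147162, X, 71533083 to 71575897) was 23.11, 22.57 and 23.62 TPM in the control libraries and 352.74, 352.92 and 270.87 TPM in the OGT libraries. All 8 fixed markers of renal epithelium and of this line, PAX8 and KRT18 among them, were at 1 TPM or more in every library. Of the leukocyte markers, CD68 was high throughout (60.59 to 119.57 TPM), CD3E and CD14 reached at most 0.42 TPM, and PTPRC was 12.23 TPM in control replicate 1 and at most 0.07 TPM elsewhere. Endothelial and fibroblast markers summed to at most 4.77 TPM in any library. The part of PTPRC in control replicate 1 in the results was not tested; the member values of that library are given with the others.

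Among the alpha subunits, PFDN5 was the most abundant member and VBP1 one of the least abundant. PFDN5 (ENSG00000123349, chromosome 12, 53295291 to 53299450, plus strand) was 497.75, 468.75 and 496.88 TPM in control and 378.1, 352.78 and 376.53 TPM in OGT libraries. Every OGT library lay below every control library, and the mean went from 488 ± 16.5 to 369 ± 14.2 TPM (SD, n = 3). PFDN5 is also known as MM-1, a protein that binds MYC. VBP1 (ENSG00000155959, chromosome X, 155197007 to 155239817, plus strand) was 2.83, 3.75 and 3.42 TPM in control and 6.16, 7.69 and 7.96 TPM in OGT libraries. Its groups did not overlap, and the OGT mean was 2.18-fold the control mean. The ratio of PFDN5 to VBP1 was 149 ± 25.6 in control and 51.5 ± 8.57 in OGT libraries (SD, n = 3).

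Among the beta subunits, PFDN4 was far lower with OGT overexpression and its partners differed much less. PFDN4 (ENSG00000101132, chromosome 20, 54207847 to 54228052, plus strand), a beta subunit of the hexamer, was 187.37, 190.65 and 177.57 TPM in the control libraries and 16.28, 20.47 and 23.47 TPM in the OGT libraries. All control libraries were high and all OGT libraries low, with no overlap. Means were 185 ± 6.81 and 20.1 ± 3.61 TPM (SD, n = 3), a level 9.23-fold lower, and the pair of libraries nearest to each other across the groups still differed 7.57-fold. On the log2(TPM + 1) scale the change was -3.16 (SE 0.123), the fourth lowest of 12645 genes tested. PFDN6 (ENSG00000204220, chromosome 6, 33289302 to 33298401, plus strand), which belongs to both complexes, was 176.75, 151.79 and 159.71 TPM in control and 101.19, 106.96 and 113.88 TPM in OGT libraries. It too was lower in every OGT library, with a mean 1.52-fold lower.

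PFDN2 and PFDN1 did not share that direction. PFDN2 (ENSG00000143256, chromosome 1, 161100556 to 161118111, minus strand), the other subunit common to both complexes, was 246.84, 262.71 and 254.29 TPM in control and 260.82, 275.24 and 290.46 TPM in OGT libraries. Its groups overlapped. PFDN1 (ENSG00000113068, chromosome 5, 140245039 to 140303121, minus strand) was 30.4, 29.56 and 25.55 TPM in control and 38.91, 39.94 and 38.35 TPM in OGT libraries. Every OGT library lay above every control library, with a mean 1.37-fold the control mean.

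The prefoldin-like genes went in 3 ways. UXT (ENSG00000126756, chromosome X, 47651798 to 47659161, minus strand), an alpha-type protein also known as ART-27 and as a cofactor of nuclear receptors, was 262.68, 254.71 and 248.67 TPM in control and 192.98, 185.3 and 220.93 TPM in OGT libraries. Its OGT libraries were all lower, with a mean 1.28-fold lower. URI1 (ENSG00000105176, chromosome 19, 29923644 to 30016608, plus strand), the scaffold of the second complex, was 4.71, 2.83 and 2.45 TPM in control and 7.71, 8.13 and 5.81 TPM in OGT libraries. Its groups did not overlap, and the OGT mean was 2.17-fold the control mean. PDRG1 (ENSG00000088356, chromosome 20, 31944342 to 31952092, minus strand), a beta-type protein named for its regulation by p53 and DNA damage, was 21.32, 20.62 and 19.31 TPM in control and 21.18, 20.52 and 20.2 TPM in OGT libraries. Its groups overlapped and the means lay close together, at 20.4 ± 1.02 and 20.6 ± 0.4997 TPM (SD, n = 3). PDRG1 lies on the same chromosome as PFDN4.

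**Figure D1:**
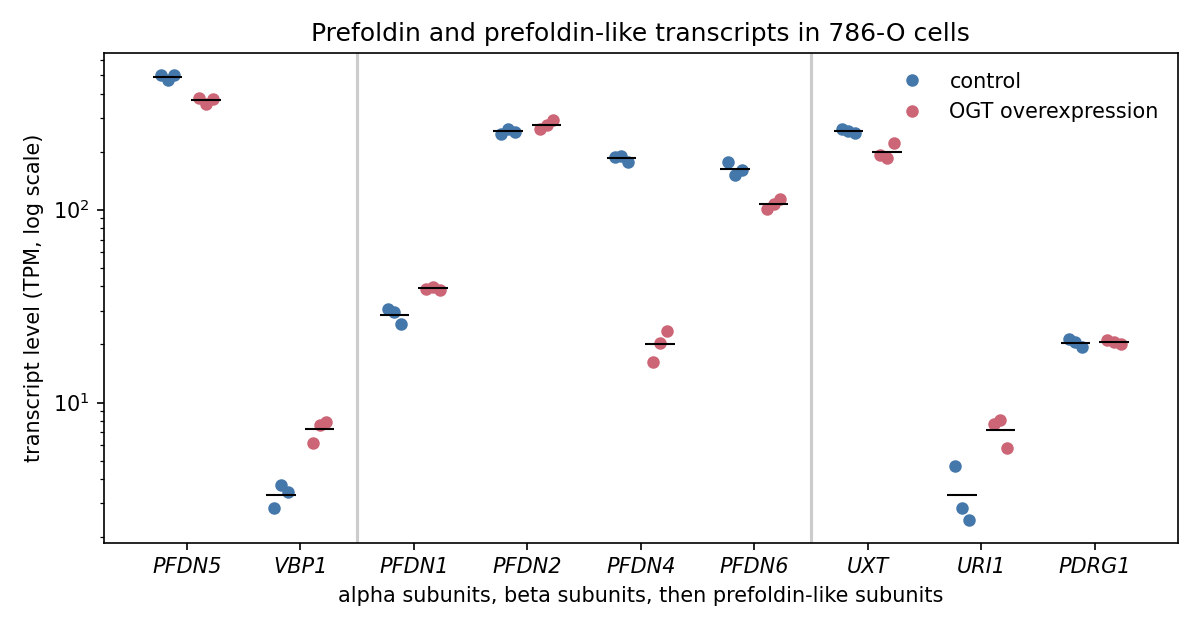
Level of each of the 9 genes in each library, in TPM on a log scale, with 3 control points, 3 OGT overexpression points and a bar at each group mean. PFDN4 went from a mean of 185 to 20.1 TPM, while PDRG1 stayed at 20.4 and 20.6 TPM.

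The order of levels in control cells was PFDN5, UXT, PFDN2, PFDN4, PFDN6, PFDN1, PDRG1, VBP1 and URI1. The neighbours UXT and PFDN2 overlapped in their ranges there, as did VBP1 and URI1, and the other neighbours did not. In OGT libraries the order was PFDN5, PFDN2, UXT, PFDN6, PFDN1, PDRG1, PFDN4, VBP1 and URI1. PFDN4 had moved from position 4 to position 7, where its range overlapped that of PDRG1, and VBP1 and URI1 still overlapped. Although the hexamer holds these subunits together, their transcripts differed 146-fold between the highest and lowest mean in control cells and 50.8-fold in OGT cells.

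The composition of the hexamer transcripts shifted mainly through PFDN4. The 6 subunits summed to 1142, 1107 and 1117 TPM in control and to 801.5, 803.1 and 850.6 TPM in OGT libraries. The difference in PFDN4 made up 54.4% of the difference between the mean sums. PFDN4 held 16.5% ± 0.669 of the sum in control and 2.45% ± 0.375 in OGT libraries (SD, n = 3). PFDN2 held 22.7% ± 1.06 and 33.7% ± 0.964, and PFDN5 43.5% ± 1.07 and 45.1% ± 1.79. Against its hexamer partner PFDN2, PFDN4 stood at 0.759, 0.726 and 0.698 in control and at 0.0624, 0.0744 and 0.0808 in OGT libraries. The 5 subunits other than PFDN4 summed to 937 ± 19.2 TPM in control and 798 ± 25.02 TPM in OGT libraries. The members of the URI1 complex summed to 697 ± 14.3 and 610 ± 35.9 TPM.

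**Figure D2:**
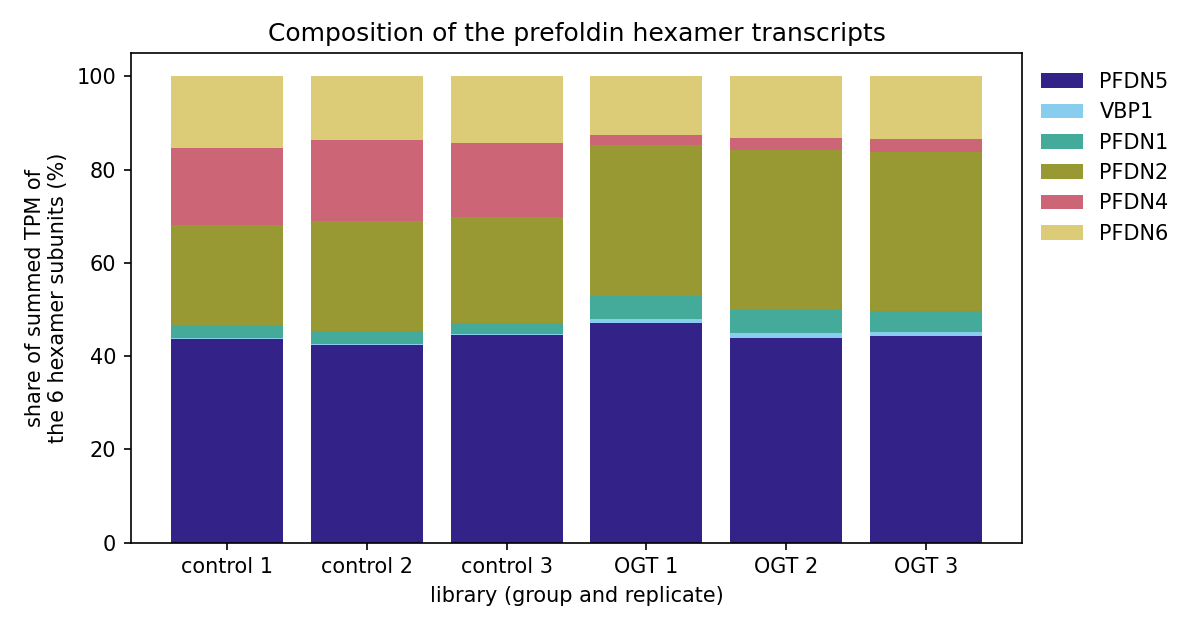
Share of the summed TPM of the 6 hexamer subunits held by each subunit, in percent, with 1 stacked bar per library. The PFDN4 band is 15.9% to 17.2% of the bar in the control libraries and 2.03% to 2.76% in the OGT libraries.

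The members were then set beside all genes. A gene was tested if it had at least 1 TPM in at least 3 libraries, with limma on log2(TPM + 1), two-sided, and called at a Benjamini-Hochberg adjusted p below 0.05. All 9 members passed this filter, each with at least 1 TPM in every library. Of 12645 genes tested, 39.1% were called higher and 9.7% lower with OGT overexpression, and the median log2 change was 0.30. Those shares depended on scaling. Quantile normalization turned 4941 higher and 1227 lower calls into 2558 and 2245, and median centring of the libraries into 1937 and 3066. Of the 9 members 3 (PFDN1, VBP1 and URI1) were past the threshold as higher, 4 (PFDN4, PFDN5, PFDN6 and UXT) as lower, and 2 (PFDN2 and PDRG1) were not past it, against 48.8% of all genes past it in either direction. Because this comparison chose the set, nothing is read from these counts. The same 7 members had groups that did not overlap; of all genes tested 58.6% did, 46.2% with OGT higher and 12.4% with OGT lower. The median log2 change of the members was 0.02.

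**Figure D3:**
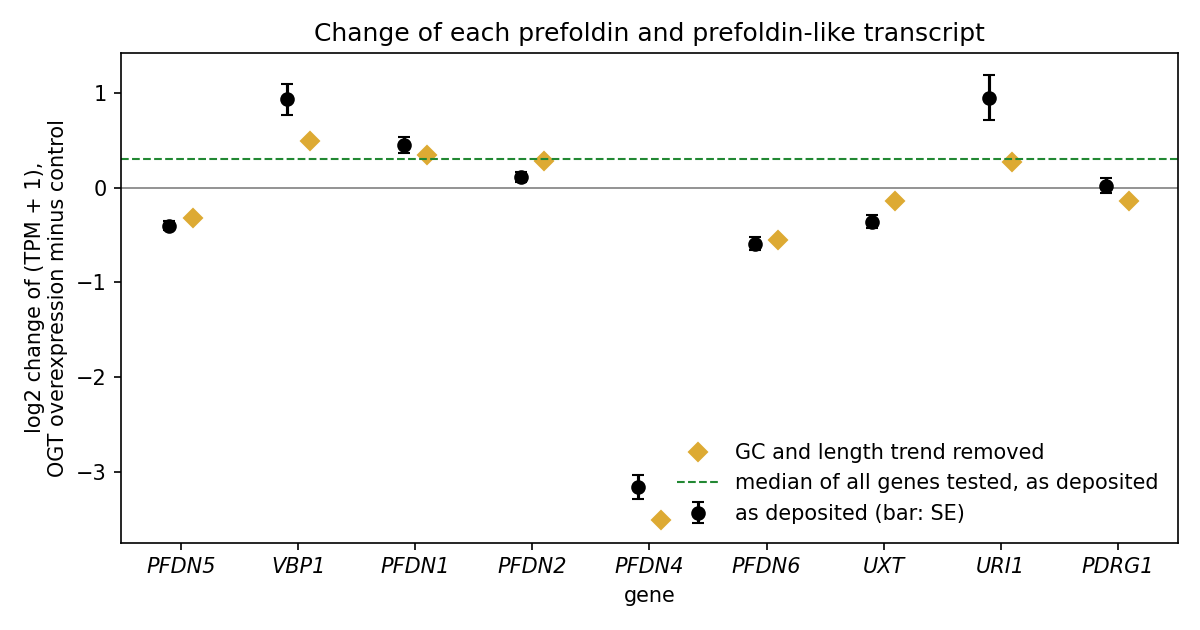
Log2 change of (TPM + 1) of each member, OGT overexpression minus control, as deposited (circles, bars show the SE) and after the correction for GC content and length (diamonds). PFDN4 stands at -3.16 and -3.51, and the dashed line is the median of all genes tested, 0.30.

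Scaling moved the smaller changes of the members. As deposited, log2 changes were 0.45 (SE 0.0841) for PFDN1, 0.11 (SE 0.0514) for PFDN2, 0.93 (SE 0.167) for VBP1, -0.40 (SE 0.0448) for PFDN5 and -0.59 (SE 0.0726) for PFDN6. They were -0.36 (SE 0.0695) for UXT, 0.02 (SE 0.0805) for PDRG1 and 0.95 (SE 0.235) for URI1. After median centring, which put the median of all genes at -0.09, PFDN4 stood at -3.55, PFDN1 at 0.06, PFDN2 at -0.28 and PDRG1 at -0.37. Then 1 member was past the threshold as higher and 6 as lower, beside 1937 and 3066 of 12645 genes. After quantile normalization PFDN1 stood at 0.17, VBP1 at 0.52 and URI1 at 0.54, none of them past the threshold. With that scaling 5 members were past the threshold as lower, beside 2245 of 12645 genes. The call of URI1 was lost without OGT replicate 2.

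GC content and length of the transcripts moved with the change across all genes. The Spearman correlation of the change with GC content was -0.472 and with length 0.386, across genes, which are not independent replicates. The 3905 genes tested with at most 45% GC in the reference transcript (the longest, protein-coding where there is one) had a median log2 change of 0.70. PFDN4 (35.3% GC), VBP1 (38.2%) and URI1 (41.8%) are such genes, and VBP1 and URI1 were higher while PFDN4 was lower. Of 1471 genes with at most 40% GC, 2.58% were called lower. When the trend of values on GC and length was taken out of every library, log2 changes were -3.51 for PFDN4, -0.55 for PFDN6, -0.32 for PFDN5, 0.34 for PFDN1 and 0.28 for PFDN2. They were 0.49 for VBP1, 0.27 for URI1 and -0.14 for both UXT and PDRG1. After that correction 15.6% of 12348 genes were called higher and 11.9% lower, and PFDN4 had the third lowest change. Of the members, PFDN1 and PFDN2 were then past the threshold as higher, and PFDN4, PFDN5 and PFDN6 as lower.

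Gene annotation limits some of these values. GENCODE lists 5 transcripts of PFDN4, from 191 bases (a processed transcript) to 1462 bases (the protein-coding one). The transcript to which reads were assigned is not given in the sources used here, and a gene's TPM depends on it. Whether this bears on the PFDN4 values was not tested. The library's strand is not stated either, so reads in exons shared with a gene on the opposite strand cannot be told apart. PFDN6 shares 724 exonic bases with RGL2 and 226 with WDR46. RGL2 was 56.59 to 60.96 TPM in control and 60.95 to 66.83 TPM in OGT libraries. WDR46 was 94.07 to 105.77 TPM in control and 83.86 to 91.24 TPM in OGT libraries. PDRG1 shares 622 exonic bases with TTLL9, which was at most 0.07 TPM in any library. PFDN1 shares 39 with CYSTM1, and PFDN2 shares 26 with NIT1. UXT shares 329 with its antisense gene UXT-AS1, which was 0.03 to 9.73 TPM in control and 0.06 to 0.11 TPM in OGT libraries. No other annotated gene overlapped PFDN4.

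PFDN4 was compared with its neighbours on chromosome 20, none of which is a member. Of the 10 nearest genes tested, 5 on each side, 8 were called higher and 0 lower by limma, also 0 at an unadjusted p below 0.05, beside 39.1% and 9.7% of all genes. Their median log2 change was 0.73, against 0.30 for all genes. ZNF217, a zinc finger gene whose lower coordinate lies at -640.8 kb from that of PFDN4, rose from 2.09 ± 0.218 to 7.57 ± 0.593 TPM (SD, n = 3), a log2 change of 1.47 (limma adjusted p = 0.000427). AURKA, which encodes the mitotic kinase Aurora A and lies at 2161.5 kb, rose from 22.02 ± 2.04 to 42.02 ± 0.774 TPM (0.91, limma adjusted p = 0.000293). The log2 changes of the others that rose were 0.82 for ATP9A, 0.73 for ZFP64, 0.64 for FAM210B, 0.65 for CSTF1, 0.31 for RTF2 and 0.73 for TFAP2C. MOCS3 (0.32) and NFATC2 (0.93) were not called (limma adjusted p = 0.144 and 0.232). After the GC and length correction ZNF217, AURKA and ZFP64 were still called higher, beside 15.6% of all genes. Their corrected log2 changes were 0.74, 0.52 and 0.51. After quantile normalization, and also after median centring, only ZNF217 and AURKA were called higher, beside 2558 and 1937 of 12645 genes. ATP9A lost its call without OGT replicate 1 (limma adjusted p = 0.0501). FAM210B lost its call without OGT replicate 1, 2 or 3, or control replicate 1 or 2 (limma adjusted p from 0.0696 to 0.091). TFAP2C lost its call without OGT replicate 1 or 2, or control replicate 2 or 3 (limma adjusted p from 0.0589 to 0.0814).

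**Figure D4:**
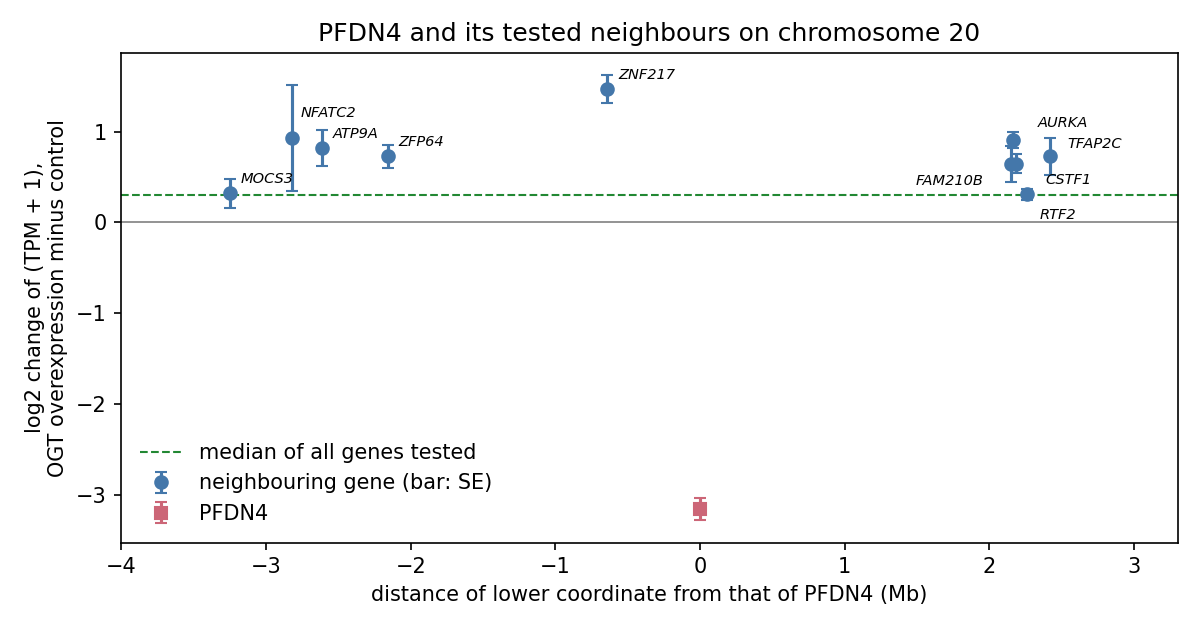
Log2 change of (TPM + 1), OGT overexpression minus control, of PFDN4 (square) and its 10 nearest tested genes (circles) against the distance of each gene's lower coordinate from that of PFDN4 in Mb; bars show the SE. The neighbours lie between 0.31 and 1.47 and PFDN4 at -3.16.

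The profile of PFDN4 over the 6 libraries was matched against 8132 other genes averaging 5 TPM or more, by the root mean square difference of profiles centred on their own mean. The nearest was TMEM265, a transmembrane protein gene, at 0.433 log2 units, with 14.47, 15.06 and 12.95 TPM in control and 1.14, 2.89 and 1.94 TPM in OGT libraries. RN7SK, the 7SK small nuclear RNA that restrains the elongation factor P-TEFb, followed at 0.439, with 66.3, 97.94 and 66.22 TPM in control and 4.49, 5 and 3.65 TPM in OGT libraries. RBIS, a gene for a ribosome biogenesis factor, came next at 0.514, with 206.51, 165.25 and 162.68 TPM in control and 43.32, 24.01 and 27.93 TPM in OGT libraries. The remaining 3 of the 6 nearest were identifiers without a gene name on chromosome 21, which hold the same value as each other in every library and so count as 1 profile. Their control libraries were 218.43, 103.51 and 108.01 TPM and their OGT libraries 23.16, 25.57 and 33.59 TPM. The nearest other member was PFDN6, at 1.29 and place 343.

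Genes that work with prefoldin were described in 4 lists. The chaperonin TRiC receives prefoldin's clients, and of 11 tested genes in the list of its subunits and cofactors 8 rose and 0 fell by limma, also 0 fell at an unadjusted p below 0.05, beside 39.1% and 9.7% of all genes. The list's median log2 change was 0.93, against 0.30 for all genes. Of the 8 subunit genes TCP1, CCT2, CCT3, CCT4, CCT5, CCT6A, CCT7 and CCT8, 7 rose, and CCT7 was 542 ± 17.7 and 528 ± 8.47 TPM (SD, n = 3; limma adjusted p = 0.442). CCT4 rose from 32.8 ± 2.02 to 82.4 ± 2.37 TPM (log2 change 1.31, limma adjusted p = 4.31e-05) and CCT6A from 42.4 ± 0.886 to 93.7 ± 4.73 TPM (1.12, limma adjusted p = 4.85e-05). TCP1 and CCT2 had log2 changes of 0.98 and 1.21. The cofactor gene PDCL3 rose as well (0.64, limma adjusted p = 0.00276). After the GC and length correction 7 genes of the list were higher and CCT7 was lower, beside 15.6% and 11.9% of all genes. The list's corrected median was 0.45, against 0.03 for all genes. The untested CCT6B was 16.55 TPM in OGT replicate 1 and at most 0.98 TPM elsewhere, and PDCL2 was listed at 0 in all libraries.

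Among partners of the URI1 complex the count of changed genes was near that of all genes. Of 12 tested genes of R2TP and RNA polymerase assembly 4 rose and 2 fell, beside 39.1% of all genes called higher and 9.7% lower, and the median log2 change was 0.36, beside 0.30 for all genes. RUVBL2, which encodes one of the paired ATPases of R2TP, fell from 517 ± 12.2 to 395 ± 17.03 TPM (log2 change -0.39, limma adjusted p = 0.000571). PIH1D1, the R2TP adaptor, fell from 154 ± 5.89 to 125 ± 10.8 TPM (-0.30, limma adjusted p = 0.0117). The genes that rose were RPAP3, the other R2TP adaptor, DNAAF10 (also named WDR92), and the polymerase assembly factors RPAP2 and GPN1, with log2 changes of 0.70, 0.89, 1.01 and 0.61. GPN1 lost its call without OGT replicate 1, 2 or 3, or control replicate 1 or 3 (limma adjusted p from 0.0896 to 0.121). RPAP2 was 0.13, 0.6 and 0.18 TPM in control and 1.66, 1.24 and 1.91 TPM in OGT libraries. It passed the filter only through the OGT libraries, so the filter favoured its call as higher. It was not tested without any 1 of the OGT replicates, and the list then had 2 higher. After the GC and length correction 0 rose by limma (0 too before adjustment of p, at 0.05), and RUVBL2 alone fell (corrected log2 change -0.33). Of all genes 15.6% were then called higher and 11.9% lower. POLR2E, the polymerase subunit shared by all nuclear RNA polymerases, was 499 ± 35.6 and 557 ± 23.4 TPM (SD, n = 3) and was not called (limma adjusted p = 0.0636). ASDURF, whose peptide is a further subunit of the URI1 complex and is read from the ASNSD1 transcript, was 0.15 to 3.4 TPM and was not called (limma adjusted p = 0.166); reads of these genes cannot be told apart.

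Downstream of TRiC, the lists of tubulin folding cofactors and of client genes had medians below that of all genes (0.30), with a share of higher genes near the 39.1% of all genes. Of 8 genes listed as tubulin folding cofactors 3 rose (TBCD, TBCE and TBCEL, log2 changes 0.35, 0.42 and 0.74, limma adjusted p = 0.0455, 0.0372 and 0.0302). The list took in TBCK (log2 change 0.55, limma adjusted p = 0.13) by its symbol, although it encodes a TBC domain kinase and no tubulin cofactor. TBCEL was 0.35, 0.97 and 0.73 TPM in control and 1.62, 1.53 and 2.23 TPM in OGT libraries. It passed the filter only through the OGT libraries, so the filter favoured its call as higher. None of the 8 listed genes fell by limma, beside 9.7% of all genes, with 1 lower at an unadjusted p below 0.05. The list's median log2 change, TBCK included, was 0.17. Leaving out any 1 library left 0 or 1 of these rises. TBCE and TBCD each lost the call under 5 such settings, with limma adjusted p up to 0.123. TBCEL lost it without control replicate 1 or 3 (limma adjusted p from 0.0533 to 0.0665). TBCEL was not tested without any 1 of the OGT replicates. Among 16 actin, actin-related and tubulin genes 6 rose and 3 fell, with a median log2 change of 0.05. ACTB, which encodes beta-actin, rose from 5720 ± 212 to 8408 ± 485 TPM (0.55, limma adjusted p = 0.000235). The Arp2/3 complex genes ACTR2 and ACTR3 rose with log2 changes of 1.06 and 1.38, and the beta-tubulin gene TUBB with 0.33. TUBB lost its call after median centring and after the GC and length correction (corrected log2 change 0.09, limma adjusted p = 0.119). TUBB4B fell from 1206 ± 11 to 971 ± 16.7 TPM (-0.31, limma adjusted p = 0.000313), TUBB3 by 0.31 and the gamma-tubulin gene TUBG1 by 0.23 on the log2 scale. TUBG1 lost its call after the GC and length correction (corrected log2 change -0.13, limma adjusted p = 0.0779). The main alpha-tubulin genes TUBA1B and TUBA1C were 2385 ± 35.1 and 2291 ± 17.98 TPM in control and 2454 ± 61.4 and 2374 ± 91.6 TPM in OGT libraries, and were not called (limma adjusted p = 0.307 and 0.268), although TUBA1C was called lower after the GC and length correction (corrected log2 change -0.23). Tubulin and actin genes are near-identical families, so reads may be split between copies.

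**Figure D5:**
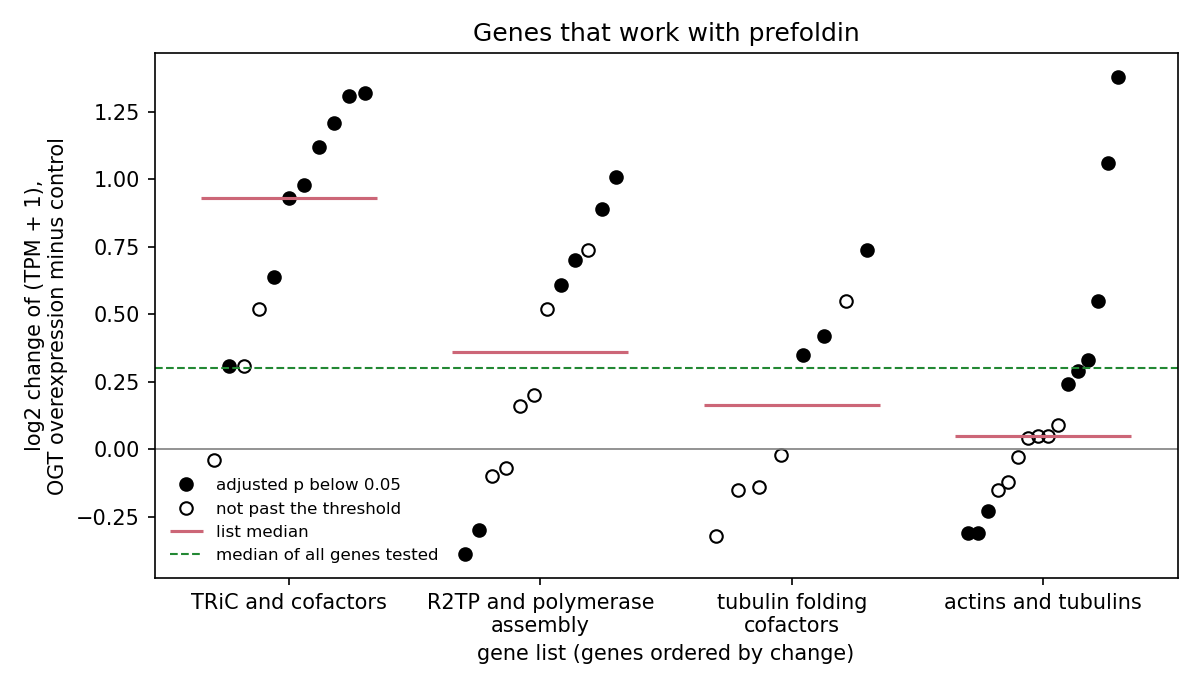
Log2 change of (TPM + 1), OGT overexpression minus control, of each tested gene in 4 lists of genes that work with prefoldin; filled points are past an adjusted p of 0.05, red bars are list medians and the dashed line is the median of all genes tested. The list medians are 0.93, 0.36, 0.17 and 0.05 from left to right.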

How the data were processed

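Total RNA from 6 samples was sequenced from TruSeq libraries, per the labels. The deposited table holds the authors' TPM values for each gene and sample. Not given in the sources used here were its aligner, counting tool, annotation and strand setting. GRCm38 and mm10, both mouse builds, are listed per the submitters' processing notes, but the gene identifiers are human. TPM keeps no read total, so precision is known only from the spread between replicates.

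Genes reaching 1 TPM in 3 or more samples were fitted with limma 3.58.1 in R 4.3.3 on log2(TPM + 1), with trend and robust eBayes, and adjusted by Benjamini-Hochberg over all 12645. Changes on this scale understate those of low genes. The fit was tested on simulated data. GC content, length and coordinates came from GENCODE release 29 by Ensembl identifier, for 97.7% of genes tested, and promoter windows from RefSeq (GRCh38.p14). Trends on GC and length were removed per library with natural splines of 4 degrees of freedom.

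The members, lists and alternatives were chosen with earlier results of these data known. Named genes were the members, OGT, up to 4 genes per list and direction with the smallest adjusted p, the 10 neighbours and the 6 profiles nearest to PFDN4; further list genes were named after their values were seen. Alternatives were a pseudocount of 0.1, no filter, a mean of at least 5 TPM, quantile normalization, median centring, the GC and length correction, each replicate left out, and a replicate block.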

Additional observations from a re-analysis of the deposited data

How the results depend on the processing

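PFDN4 stayed lower under all 13 alternatives, with log2 changes from -3.55 to -3.02. It was -3.34 after quantile normalization, -3.55 after median centring and -3.51 with the GC and length trend removed, and from -3.27 to -3.02 with 1 library left out. PFDN5 and PFDN6 also stayed lower in all 13, with log2 changes from -0.79 to -0.32 and from -0.98 to -0.53. Because this comparison chose the set, these values describe the members and are no test.

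Quantile normalization gave 2558 genes higher and 2245 lower, 2 neighbours higher, 0 R2TP genes higher (1 at an unadjusted p below 0.05), 0 tubulin cofactors higher (also 0) and 2 lower, and 5 actins and tubulins lower. Median centring gave 1937 genes higher and 3066 lower, 2 neighbours higher and 1 TRiC gene lower. It gave 0 R2TP genes higher (1 at an unadjusted p below 0.05) and 4 lower, 0 tubulin cofactors higher (also 0) and 4 lower, and 3 actins and tubulins higher and 10 lower. With the GC and length trend removed 1922 genes were higher, 3 neighbours higher, 1 TRiC gene lower, 0 R2TP genes higher (also 0 at an unadjusted p below 0.05) and 1 lower, and 1 tubulin cofactor higher and 1 lower. With a mean of at least 5 TPM there were 5 neighbours and 1 R2TP gene higher and 1 tubulin cofactor lower; fewer genes were tested. With no filter 0 tubulin cofactors were higher (3 at an unadjusted p below 0.05). With 1 library left out, 2 to 4 R2TP genes, 0 to 1 tubulin cofactors and 5 to 7 neighbours were higher and 0 to 1 tubulin cofactors lower. The cause of these differences was not tested.

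Replicate numbers were not taken as pairing, since samples sharing a number had deviations correlated at -0.0194, 0.00264 and 0.0166. A replicate block gave 4382 genes higher and 1091 lower, and 0 tubulin cofactors higher (4 at an unadjusted p below 0.05). TPM without read totals leaves the counting error of low members such as VBP1 and URI1 unknown.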
